A study of Mus musculus with 8 samples.

Results

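The granule products of Paneth cells were followed through 8 RNA sequencing libraries of flow-sorted mouse small intestinal epithelium. They comprised 10 genes chosen by symbol (Lyz1, Mmp7, Ang4, Itln1, Pla2g2a, Mptx2, Defa17, Defa21, Defa22 and Defa24), and all 10 matched a row among the 37620 genes of each deposited table. The cells came from the small intestine epithelium and had been depleted of leukocytes by CD45 and of cells that bind Ulex europaeus agglutinin I, a fucose-binding lectin. Of the libraries, 4 were from cells labelled CD24Mid (replicates 1, 3, 5 and 7; also called CD24low by the submitters) and 4 from cells labelled CD24Neg (replicates 2, 4, 6 and 8). The submitters call these biological replicates. The labels give no strain, age, animal or intestinal region, so p-values measure the spread between these libraries.

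Paneth cells sit at the base of the crypts of the small intestine and release granules of antimicrobial proteins into the crypt lumen. Their main products are lysozyme and the alpha-defensins, called cryptdins in mice, which are made as inactive precursors and cut to their active form by the matrix metalloproteinase encoded by Mmp7. Paneth cells are known for high surface CD24 and bind Ulex lectin, so the sort described by the submitters gates against them on both counts. In bulk libraries of this kind, fewer Paneth cells and less granule RNA per cell cannot be told apart.

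The alpha-defensins among these genes fall into pairs of near copies, which bears on every defensin value below. The coding sequences of Defa21 and Defa22 were 99.3% identical, with 2 mismatched bases, and those of Defa17 and Defa24 were 95.7% identical, with 12 (transcripts of GENCODE M21, an annotation of a later build than the one used by the authors). Across the pairs, identity was 80.8% to 82.8%. The last 90 coding bases, positions 193 to 282 of each coding sequence and ending in the stop codon, show where these 4 genes differ. Reads can also be shared with other Defa genes, which are not aligned here. Capitals mark the 38 positions at which the 4 genes are not all alike.
Defa17: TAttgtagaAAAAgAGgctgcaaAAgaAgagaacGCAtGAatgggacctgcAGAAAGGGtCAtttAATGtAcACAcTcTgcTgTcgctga
Defa24: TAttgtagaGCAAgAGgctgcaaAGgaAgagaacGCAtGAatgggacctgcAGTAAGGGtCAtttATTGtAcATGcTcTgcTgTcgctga
Defa21: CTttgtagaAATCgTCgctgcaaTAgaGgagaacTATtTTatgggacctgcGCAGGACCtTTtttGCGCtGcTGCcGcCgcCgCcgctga
Defa22: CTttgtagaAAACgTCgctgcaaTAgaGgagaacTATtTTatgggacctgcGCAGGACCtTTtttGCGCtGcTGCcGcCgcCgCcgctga
In this stretch Defa21 and Defa22 differed at 1 position, Defa17 and Defa24 at 7, and Defa21 and Defa24 at 38. Of the reads that the deposited estimate assigned to each gene over all libraries, 24.1% were unique to Defa17, 68.3% to Defa21, 68.4% to Defa22 and 91.1% to Defa24, against 98.6% for Lyz1. For Mmp7, Ang4, Itln1, Pla2g2a and Mptx2 unique and estimated reads differed by under 5%. The share of 50-base windows found in no other gene of GENCODE M21 was 8.05% for Defa17, 27.1% for Defa21, 25.1% for Defa22 and 71.9% for Defa24. Among the Defa genes not aligned it was as low as 7.76% for Defa3 and 5.25% for Defa23, and 47.6% for Defa30. The genes that share the reads of Defa17 were not traced.

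The 8 libraries held 11340782 to 18928233 reads unique to 1 gene. The sorting marker Cd24a stood at 155 to 255 normalised CPM in CD24Mid and 19.2 to 38.5 in CD24Neg, and the CD45 gene Ptprc was detected in all 8 libraries at 2.23 to 9.13 and 2.78 to 38.2 CPM. Normalised CPM are counts scaled by library size and TMM factor; TMM assumes that most genes do not change. The scaling matters here. Mitochondrial genes took 8.03% to 9.17% of the reads in CD24Mid and 27.7% to 37.0% in CD24Neg, and their part in the scaling was not tested. Over the 12840 genes tested, the median log2 fold change moved from 0.015 with TMM factors to 0.24 with upper-quartile factors and 0.96 on unscaled totals. Directions below hold for TMM scaling, and are read against that shift. CD24Mid and CD24Neg libraries also differed in summed goblet, enteroendocrine and plasma cell markers, and overlapped in summed tuft and myeloid markers. Ptprc was called higher in CD24Neg (log2 fold change -1.72, SE 0.66, edgeR adjusted p = 0.039), although its groups overlapped. Summed goblet markers (13 of 13 with reads) ran from 3541 to 5448 CPM in CD24Mid and from 12359 to 34771 in CD24Neg. Summed enteroendocrine markers (16 of 16 with reads) ran from 328 to 907 and from 99.1 to 174 CPM, and summed plasma cell markers (8 of 8 matched) from 515 to 1132 and from 100 to 153. Summed tuft markers (9 of 10, with Il25 at 0 in every library) ran from 5.72 to 11.7 and from 4.69 to 11.7 CPM, and summed myeloid markers (11 of 11) from 32.1 to 54.8 and from 18.3 to 54.1. The part of these cells in the granule values was not tested.

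The granule genes did not share 1 direction between the sorted fractions. Mmp7 was higher in CD24Mid, Defa21 and Defa22 were higher in CD24Neg, and 6 further genes, Lyz1 among them, were not called. Pla2g2a had too few reads to be tested. All 10 genes were detected in both fractions. At an edgeR adjusted p under 0.05, 3 of the 9 tested genes were called, against 69.8% of all 12840. Of these, 1 was higher in CD24Mid, where 35.5% of all tested genes were called in that direction, and 2 were higher in CD24Neg, against 34.3% of all genes. Their median log2 fold change was -0.25, beside 0.015 for all genes tested. On unscaled totals the counts were 3 and 0, with Itln1 and Defa17 joining Mmp7, while 8959 and 1659 genes were called overall against 4557 and 4410 with TMM factors. Summed over the 10 genes, the level was 99.5, 235, 122 and 107 CPM in CD24Mid replicates 1, 3, 5 and 7, and 102, 319, 84.5 and 131 CPM in CD24Neg replicates 2, 4, 6 and 8. These ranges overlapped throughout.

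**Figure D1:**
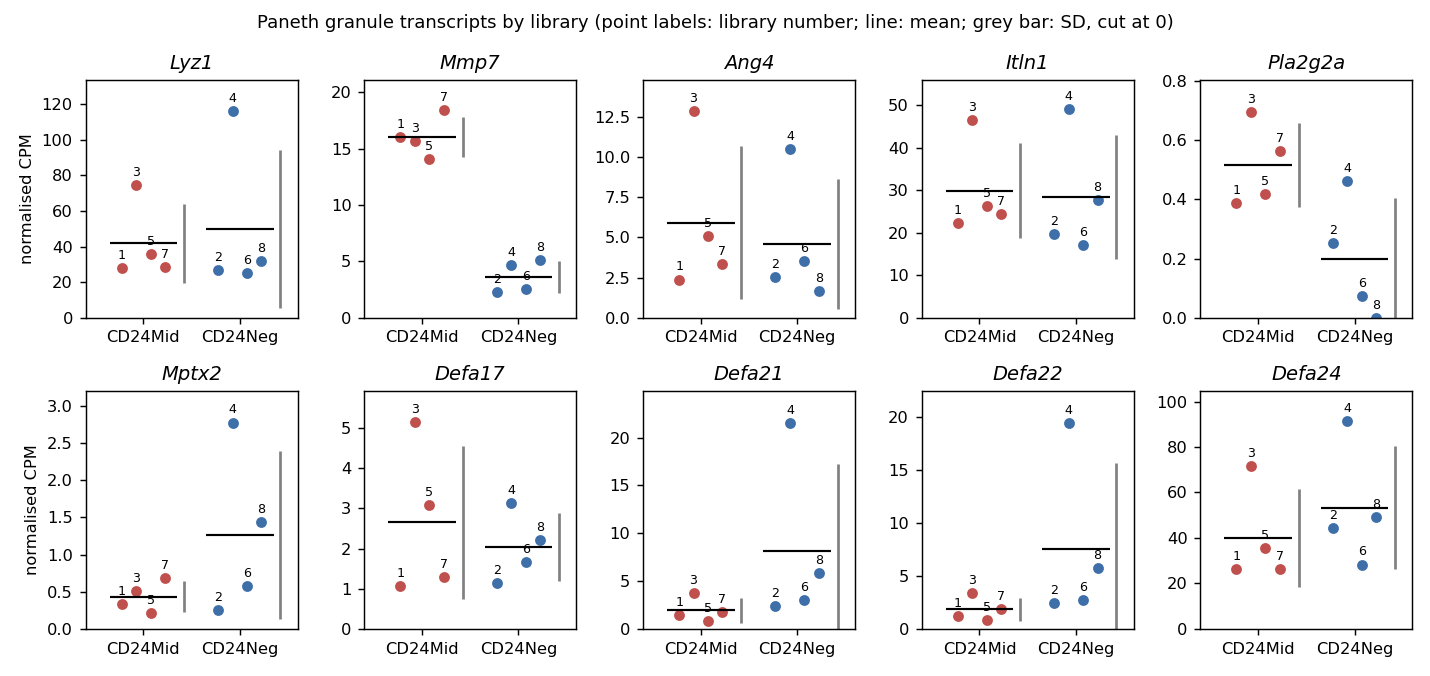
Normalised CPM of gene-unique reads (y axis, linear, a separate scale for each gene) for the 10 granule genes in CD24Mid (red) and CD24Neg (blue). Points are single libraries with their numbers, black lines the means and grey bars the SD (n = 4 each, cut at 0). Mmp7 is the gene whose groups do not overlap, and CD24Mid replicate 3 and CD24Neg replicate 4 are the highest of their groups for 8 and 9 of the 10 genes.

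Mmp7 (matrilysin), the protease that activates cryptdins, separated the fractions. Its level was 16.0, 15.7, 14.1 and 18.4 CPM in CD24Mid replicates 1, 3, 5 and 7, and 2.28, 4.63, 2.54 and 5.08 CPM in CD24Neg replicates 2, 4, 6 and 8. Every CD24Mid library thus lay above every CD24Neg library, a separation that 33.0% of all tested genes showed in this direction and 31.4% in the other; no other tested granule gene was separated either way. On the deposited estimate, in fragments per kilobase of effective length scaled to the mapped total (FPKM), Mmp7 was again separated (22.8 to 29.9 against 1.77 to 4.09), as were 64.9% of tested genes in that direction and 11.4% in the other. Pla2g2a was so too over the 7 libraries with an estimate for it. Mmp7 was 4.45-fold higher in CD24Mid (means 16.0 ± 1.77 and 3.63 ± 1.43 CPM, SD, n = 4 each), a log2 fold change of 2.15 with a standard error (SE) of 0.24 (adjusted p = 1.44e-05 by edgeR). The call held in all 16 alternative settings, with log2 fold changes from 2.04 to 3.17. The spread within CD24Mid was 1.30-fold from lowest to highest library, against 2.65-fold for Lyz1 and 5.42-fold for Ang4.

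Defa21 and Defa22 lay on the other side. Defa21 stood at 1.41, 3.77, 0.837 and 1.73 CPM in CD24Mid replicates 1, 3, 5 and 7, and at 2.41, 21.5, 2.98 and 5.85 CPM in CD24Neg replicates 2, 4, 6 and 8. Defa22 stood at 1.26, 3.39, 0.878 and 1.85 CPM and at 2.41, 19.4, 2.76 and 5.74 CPM in the same order. For both genes CD24Mid replicate 3 lay above CD24Neg replicates 2 and 6, so the groups overlapped, and CD24Neg replicate 4 lay far above the other CD24Neg libraries. Defa21 was 4.204-fold higher in CD24Neg (edgeR log2 fold change -2.07, SE 0.69, adjusted p = 0.020) and Defa22 4.07-fold (edgeR log2 fold change -2.03, SE 0.66, adjusted p = 0.018). The 2 calls are not separate evidence, since the genes are near copies: Defa21 had 93.5 to 112 unique reads per 100 of Defa22 in every library, and their deviations from the group means correlated with r = 0.997 over 8 libraries.

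Both genes were lower in CD24Mid under all 16 alternatives, but the calls were not kept in all of them. Without CD24Neg replicate 4 the log2 fold change was -0.91 for Defa21 (edgeR adjusted p = 0.13) and -0.93 for Defa22 (adjusted p = 0.11). Both calls were also lost on unscaled totals (log2 fold changes -1.17 and -1.12, adjusted p = 0.15 for each) and with limma on the deposited estimates (-0.79 and -0.76, adjusted p = 0.34 and 0.33), and were kept with upper-quartile factors (-1.84 and -1.80, adjusted p = 0.032 and 0.029). With no filter on low counts the calls were lost at log2 fold changes of -1.99 and -1.94 (adjusted p = 0.090 and 0.076). Defa21 alone just missed the threshold without CD24Mid replicate 1, 5 or 7 (-1.95, -1.82 and -2.02, adjusted p = 0.054, 0.054 and 0.051). Over 16 alternatives the adjusted p ran from 0.00017 to 0.34 for Defa21 and from 0.00016 to 0.33 for Defa22. Libraries with consecutive numbers deviated together, although the labels do not pair them. Within each of these 4 pairs Defa21 and Defa22 were lower in CD24Mid, by log2 differences of -2.52 to -0.78 and -2.52 to -0.93, and a fit with these pairs as a block gave the lowest adjusted p of each. Without CD24Mid replicate 3 and CD24Neg replicate 4 together, also a setting chosen after the data were seen, both were called in CD24Neg (log2 fold changes -1.42 and -1.36, adjusted p = 0.018 and 0.023). On the deposited estimate, which counts shared reads and carries no TMM scaling, Defa21 was at 7.00 to 30.2 in CD24Mid and 9.40 to 93.2 FPKM in CD24Neg.

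The upstream sequences of these genes were set beside their values because Defa21 and Defa22 moved together. From 250 bases before to 50 after the start (RefSeq, GRCm38.p6), the promoters of Defa21 (chr8:21025295-21025594, plus strand) and Defa22 (chr8:21162027-21162326, plus strand) were identical at all 300 bases, against 49.7% identity between Defa21 and Mmp7 (chr9:7691840-7692139, plus strand, the first of 2 starts) and 49.4% between Defa21 and Lyz1 (chr10:117292819-117293118, minus strand). Capitals mark the TATA box letters TATAAA and the core letters CTTTGA of the TCF/LEF site, through which Wnt signalling acts on its target genes, each searched on both strands; CTTTGA reads TCAAAG on the strand printed wherever it was found.
Defa21 and Defa22: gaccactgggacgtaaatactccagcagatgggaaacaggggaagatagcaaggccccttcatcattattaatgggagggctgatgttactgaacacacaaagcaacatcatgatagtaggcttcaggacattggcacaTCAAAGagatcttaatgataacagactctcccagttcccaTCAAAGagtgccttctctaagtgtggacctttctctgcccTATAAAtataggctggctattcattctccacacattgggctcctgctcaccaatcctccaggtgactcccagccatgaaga
Mmp7: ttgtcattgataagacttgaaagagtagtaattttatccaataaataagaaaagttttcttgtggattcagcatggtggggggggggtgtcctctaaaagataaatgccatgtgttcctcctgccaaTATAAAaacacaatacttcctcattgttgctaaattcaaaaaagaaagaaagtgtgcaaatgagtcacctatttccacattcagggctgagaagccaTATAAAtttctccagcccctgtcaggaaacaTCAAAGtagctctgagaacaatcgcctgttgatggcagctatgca
Lyz1: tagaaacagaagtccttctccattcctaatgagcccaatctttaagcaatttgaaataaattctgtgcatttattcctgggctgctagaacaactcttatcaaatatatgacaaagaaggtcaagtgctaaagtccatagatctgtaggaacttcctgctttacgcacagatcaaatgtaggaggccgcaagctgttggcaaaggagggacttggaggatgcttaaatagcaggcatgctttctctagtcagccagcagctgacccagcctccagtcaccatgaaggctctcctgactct
Of the 7 granule genes with a promoter entry, 3 held CTTTGA (Defa21, Defa22 and Mmp7) and the same 3 held TATAAA. These motifs were in 16.0% and 13.6% of 32817 promoters of this length. Defa21 and Defa22 hold the same sequence and are not separate counts. In Mmp7 the CTTTGA lay after the first start, and the promoter of its second start held no TATAAA. No excess can be read from so few sequences. Defa17, Defa24 and Pla2g2a had no entry. The motifs did not overlap each other. These are matches of letters and say nothing of binding.

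Lyz1, the Paneth cell lysozyme that cuts bacterial peptidoglycan, was not called between the fractions, whose values overlapped. It stood at 28.2, 74.6, 35.8 and 28.6 CPM in CD24Mid replicates 1, 3, 5 and 7, and at 26.7, 116, 25.0 and 31.7 CPM in CD24Neg replicates 2, 4, 6 and 8. CD24Mid replicate 3 and CD24Neg replicate 4 stood apart, and the other 6 libraries lay between 25.0 and 35.8 CPM. The log2 fold change was -0.25 ± 0.52 SE (edgeR adjusted p = 0.68) and turned to 0.66 on unscaled totals, 0.63 without CD24Neg replicate 4 and 0.23 without both high libraries, with no call in any of these. Lyz2, the lysozyme of macrophages with a coding sequence 95.1% identical, was much lower and was higher in CD24Mid, with 2.73 ± 1.28 and 0.868 ± 0.570 CPM (adjusted p = 0.010 by edgeR). Lyz2 was not highest in the same libraries: it had 76, 30, 45 and 98 reads in CD24Mid replicates 1, 3, 5 and 7, and 7, 3, 8 and 15 in CD24Neg replicates 2, 4, 6 and 8.

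Defa24 was the most abundant granule transcript per length. On the deposited estimate it was at 240 ± 122 FPKM in CD24Mid and 170 ± 90.002 in CD24Neg (SD, n = 4 each). In CD24Mid it was followed by Defa17 (64.4 ± 44.2), Lyz1 (55.3 ± 28.5), Itln1 (44.0 ± 16.1), Mmp7 (25.3 ± 3.14), Defa21 (15.5 ± 10.1), Ang4 (15.2 ± 12.0) and Defa22 (14.7 ± 8.58), with Pla2g2a (1.38 ± 0.583) and Mptx2 (1.19 ± 0.609) lowest. In CD24Neg the order after Defa24 was Lyz1 (35.3 ± 32.3), Defa21 (35.2 ± 39.1), Defa22 (32.6 ± 35.1), Defa17 (28.3 ± 11.1), Itln1 (22.1 ± 11.8), Ang4 (6.25 ± 5.76), Mmp7 (2.99 ± 1.202) and Mptx2 (1.88 ± 1.80). Pla2g2a had the lowest mean, over the 3 CD24Neg libraries that list an estimate for it (0.368 ± 0.278). The mean ± SD of Defa24 lay above that of the next gene in both fractions, and that of Defa22 above that of Pla2g2a in CD24Mid; for all other neighbours these intervals overlapped. The order of Defa17 is uncertain, as most of its reads were shared.

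Defa24 and Defa17, the other defensin pair, were not called. By unique reads Defa24 stood at 26.1, 71.7, 35.5 and 26.4 CPM in CD24Mid replicates 1, 3, 5 and 7, and at 44.5, 91.4, 28.3 and 49.3 CPM in CD24Neg replicates 2, 4, 6 and 8. Its log2 fold change was -0.41 ± 0.39 SE (edgeR adjusted p = 0.36), turned to 0.51 on unscaled totals and 0.024 without CD24Neg replicate 4, and reached -0.85 without CD24Mid replicate 3 (adjusted p = 0.044, the lowest of its 16 alternatives, which ran to 0.96). Defa17 stood at 1.07, 5.16, 3.10 and 1.29 CPM and at 1.14, 3.12, 1.67 and 2.21 CPM in the same order (edgeR log2 fold change 0.38, SE 0.51, adjusted p = 0.52), and at 1.32 on unscaled totals it was called (adjusted p = 0.038, in a range of 0.038 to 0.78). The groups overlapped for both genes.

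Itln1 and Ang4 were not called either. Itln1 (intelectin), a lectin that binds microbial sugars, stood at 22.4, 46.5, 26.2 and 24.5 CPM in CD24Mid replicates 1, 3, 5 and 7, and at 19.6, 49.2, 17.1 and 27.6 CPM in CD24Neg replicates 2, 4, 6 and 8 (edgeR log2 fold change 0.08, SE 0.33, adjusted p = 0.84). Outside the 2 high libraries the values lay between 17.1 and 27.6 CPM in both fractions. Itln1 was called in CD24Mid in the 2 settings that scale by the library total alone. These were edgeR on unscaled totals (log2 fold change 1.009, adjusted p = 0.022) and limma on the estimates (1.06, adjusted p = 0.026). Over the alternatives its adjusted p ran from 0.022 to 0.95. Its log2 fold change fell below 0 without CD24Neg replicate 2, CD24Mid replicate 3 or CD24Neg replicate 6 (-0.026, -0.21 and -0.068). Ang4, a microbicidal ribonuclease of the angiogenin family, stood at 2.38, 12.9, 5.06 and 3.34 CPM and at 2.53, 10.5, 3.56 and 1.66 CPM (edgeR log2 fold change 0.38, SE 0.62, adjusted p = 0.60). Its relative Ang was higher in CD24Neg, with 10.033 ± 1.36 CPM in CD24Mid and 15.8 ± 3.06 CPM in CD24Neg (adjusted p = 0.0043 by edgeR). Ang2, Ang5 and Ang6 had no read in any library.

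Mptx2 (mucosal pentraxin 2) and Pla2g2a, a secreted phospholipase that attacks bacterial membranes, were near the limit of detection. Mptx2 had 7, 11, 5 and 17 reads in CD24Mid replicates 1, 3, 5 and 7, and 2, 24, 8 and 13 in CD24Neg replicates 2, 4, 6 and 8. Its log2 fold change of -1.48 ± 0.62 SE just missed the threshold (edgeR adjusted p = 0.052), and Mptx2 was called in 5 of 14 alternatives. These were DESeq2 (adjusted p = 0.044), the block of consecutive libraries (0.014), and leaving out CD24Neg replicate 2 (0.019), CD24Neg replicate 6 (0.041) or CD24Mid replicate 7 (0.044). The log2 fold change was -0.72 without CD24Neg replicate 4 (adjusted p = 0.30), and the adjusted p reached 0.83 with limma. Its near copy Mptx1 (92.0% coding identity) was not called either (edgeR log2 fold change -0.15, SE 0.48, adjusted p = 0.79). Pla2g2a had 8, 15, 10 and 14 reads in CD24Mid and 2, 4, 1 and 0 in CD24Neg, where no read in replicate 8 allows up to 3 reads, or 0.331 CPM. Its summed ratio was 2.91 after scaling (95% exact interval 1.31 to 7.62, counting error only), but CD24Neg replicate 4 (0.463 CPM) lay above CD24Mid replicates 1 and 5 (0.388 and 0.418 CPM) and an exact two-sided permutation test gave p = 0.086 (n = 4 each; the smallest possible is 0.029). Among its paralogs Pla2g5 and Pla2g2f were higher in CD24Mid by 8.00-fold and 4.69-fold (edgeR adjusted p = 0.00061 and 0.00010). Pla2g2d and Pla2g12a were higher there too (edgeR adjusted p = 0.0080 and 1.88e-05). Pla2g10 went the other way, with 2.44 ± 0.362 CPM in CD24Mid and 5.41 ± 1.08 CPM in CD24Neg (edgeR adjusted p = 0.00073).

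**Figure D2:**
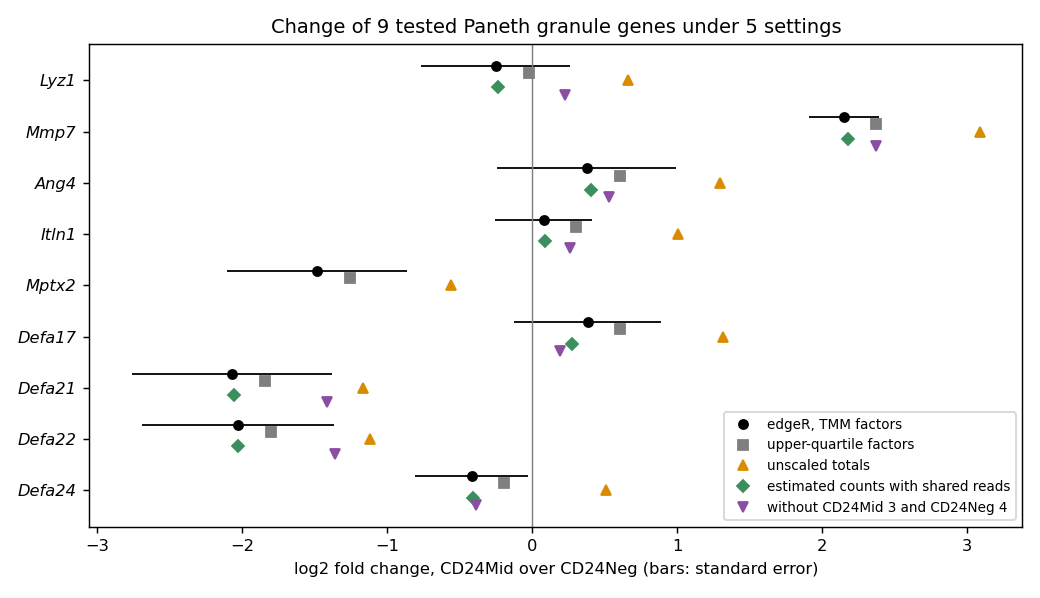
Log2 fold change of CD24Mid over CD24Neg (x axis) for the 9 tested granule genes under 5 settings; black bars are the standard error of the edgeR fit with TMM factors. Mmp7 stays above 2 and Defa21 and Defa22 stay below 0 in all 5, while Lyz1 and Defa24 lie below 0 with TMM factors and above 0 on unscaled totals (0.66 and 0.51), and Lyz1 also without the 2 high libraries (0.23).

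Reads of 1 gene set against those of another in the same library do not depend on the scaling between libraries. Mmp7 had 56.8, 21.01, 39.4 and 64.3 reads per 100 Lyz1 reads in CD24Mid replicates 1, 3, 5 and 7, and 8.53, 3.98, 10.2 and 16.0 in CD24Neg replicates 2, 4, 6 and 8. Defa21 had 4.99, 5.05, 2.34 and 6.05 per 100 Lyz1 reads in CD24Mid and 9.00, 18.5, 11.9 and 18.5 in CD24Neg. Defa22 followed Defa21, with 2.45 to 6.47 in CD24Mid and 9.00 to 18.1 in CD24Neg. On this measure the fractions did not overlap for these 3 genes, including in the high libraries. Mmp7 was 1 of 9 genes higher in CD24Mid without overlap (11.4% of the other tested genes were). Defa21 and Defa22 were 2 of 9 higher in CD24Neg (6.02% were). Those shares are no like comparison. Lyz1 itself varied between libraries, and Defa21 and Defa22 varied with it (r = 0.91 and 0.90 for deviations from the group means, 8 libraries). As near copies, Defa21 and Defa22 are also not separate evidence. The means differed 4.69-fold for Mmp7, 3.14-fold for Defa21 and 3.06-fold for Defa22. Itln1 was at 62.3 to 85.5 reads per 100 Lyz1 reads in CD24Mid and 42.3 to 87.1 in CD24Neg, and Defa24 at 92.3 to 99.2 and 78.7 to 166, both overlapping, as did the remaining 4 genes. Against Defa24 in place of Lyz1, both Defa21 and Defa22 overlapped. Defa21 had 2.36 to 6.55 reads per 100 Defa24 reads in CD24Mid and 5.41 to 23.5 in CD24Neg. Defa22 had 2.47 to 7.01 in CD24Mid and 5.41 to 21.3 in CD24Neg.

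**Figure D3:**
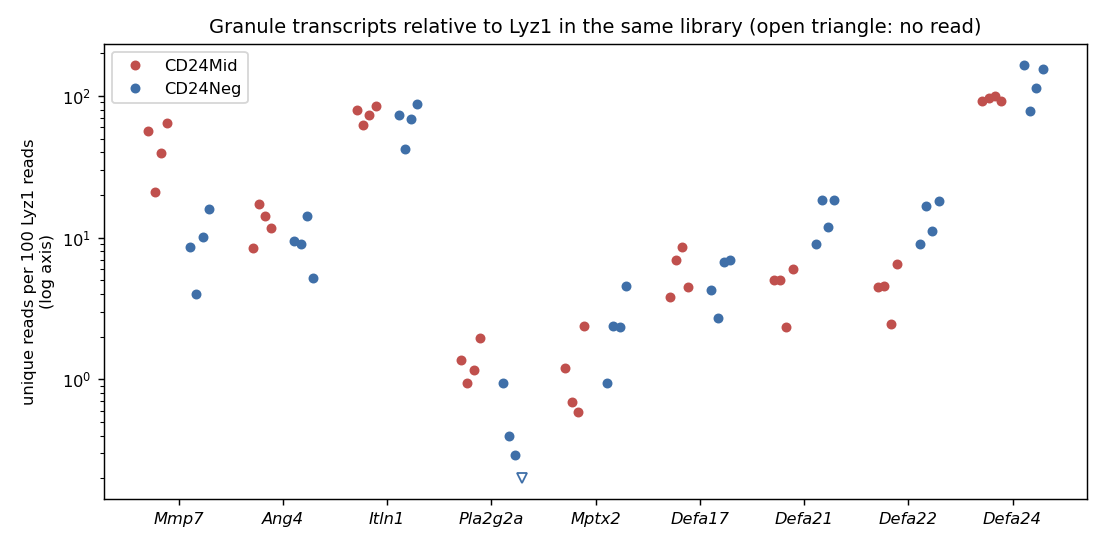
Gene-unique reads per 100 Lyz1 reads of the same library (y axis, log scale) for the other 9 granule genes in CD24Mid (red) and CD24Neg (blue), 1 point per library; the open triangle marks a library with no Pla2g2a read. The fractions do not overlap for Mmp7 (21.01 to 64.3 against 3.98 to 16.0), Defa21 and Defa22, and overlap for the other 6.

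The level of most granule genes varied between libraries of 1 fraction in the same way. CD24Mid replicate 3 was the highest of its group for 8 of the 10 genes and CD24Neg replicate 4 for 9 of 10, with Mmp7 the exception in both and Mptx2 in CD24Mid. Over the 8 libraries, deviations from the group means in log2 CPM correlated with r of 0.40 to 0.997 (median 0.80) in the 28 pairs among the 8 tested genes other than Mmp7, and with r of 0.067 to 0.90 (median 0.52) in the 8 pairs with Mmp7. These points share library and depth and, among defensins, reads. How often these 2 libraries were highest over all tested genes was not computed, nor was r among pairs of other genes. CD24Mid replicate 3 and CD24Neg replicate 4 also deviated together over all tested genes (r = 0.37). Among 7579 genes whose mean log2 CPM was 4 or more, the one closest to Lyz1 on this measure was Itln1 (r = 0.96), before Rfc4, a clamp loader subunit of DNA replication, the adrenergic receptor gene Adra2a, the gamma-tubulin gene Tubg1 and the phosphatase inhibitor gene Ppp1r2 (each r = 0.93, 8 libraries). Summed enteroendocrine markers were also highest in CD24Mid replicate 3 (907 CPM) and CD24Neg replicate 4 (174 CPM). The sorting marker Cd24a was highest in the same 2 libraries (255 and 38.5 CPM, next 190 and 31.7 CPM). So were summed crypt stem cell markers (5102 and 529 CPM, next 5053 and 486 CPM). Summed myeloid markers were lowest there (32.1 and 18.3 CPM). Summed goblet markers were highest in CD24Neg replicate 4 (34771 CPM) but not in CD24Mid replicate 3 (5169 CPM, below 5448 in replicate 1). Their part in the granule levels was not tested.

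Among alpha-defensins as a family, 27 genes whose symbol starts with Defa stood in the tables, 15 of them with at least 1 unique read and 9 tested. Of the 23 beside the 4 granule genes above, 5 were tested. Defa37 was higher in CD24Neg (edgeR log2 fold change -1.52, SE 0.58, adjusted p = 0.038) and the other 4, Defa3, Defa23, Defa29 and Defa30, were not called. The Defa37 call was lost, with 0 of these genes called in CD24Neg, with upper-quartile factors, on unscaled totals, on estimated counts, with no filter, with limma, and without CD24Mid replicate 1, 5 or 7 or CD24Neg replicate 4 or 8; the count was 3 without CD24Mid replicate 3, 2 without both high libraries and 4 with consecutive libraries as a block. By estimate, Defa3, Defa23 and Defa30 were the most abundant of these 23 (110 ± 83.3, 62.9 ± 47.6 and 54.1 ± 37.7 FPKM in CD24Mid; 56.8 ± 44.8, 62.6 ± 36.8 and 54.8 ± 39.0 in CD24Neg), although 17.7%, 16.6% and 86.5% of their estimated reads were unique. Estimated reads of the whole family came to 60.5, 209, 83.1 and 77.2 CPM on normalised totals in CD24Mid replicates 1, 3, 5 and 7 and to 95.3, 333, 88.6 and 154 in CD24Neg replicates 2, 4, 6 and 8. The family total thus overlapped between fractions and was highest in the same 2 libraries.

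The make-up of the family differed in part. Defa24 held 37.3% to 47.6% of the estimated alpha-defensin reads in CD24Mid and 30.1% to 50.4% in CD24Neg. Defa21 held 1.49% to 3.73% and 3.52% to 9.35%, and Defa22 1.57% to 3.30% and 3.49% to 8.51%. Defa3 went the other way, with 15.9% to 20.1% in CD24Mid and 9.32% to 12.1% in CD24Neg, and Defa17 held 6.77% to 14.8% and 3.79% to 8.37%. Defa37 held 2.99% to 4.35% and 4.72% to 8.37%. Shares of 1 total are tied to each other, and for Defa3 and Defa17 they rest mostly on shared reads. Of the estimated reads of Defa37, 58.3% were unique by the deposited counts. None of its 354 windows of 50 bases was unique in GENCODE M21, so its call and share are uncertain. For Defa21 and Defa22 these measures also differed (68.3% and 68.4% of reads, 27.1% and 25.1% of windows). Their assignment may thus also depend on the annotation, which was not tested. Of the 15 Defa genes with at least 1 unique read, only Defa22, Defa3 and Defa37 had shares that did not overlap between the fractions. The shares overlapped in 1 CD24Neg library for Defa21, and overlapped for Defa24 and Defa17.

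**Figure D4:**
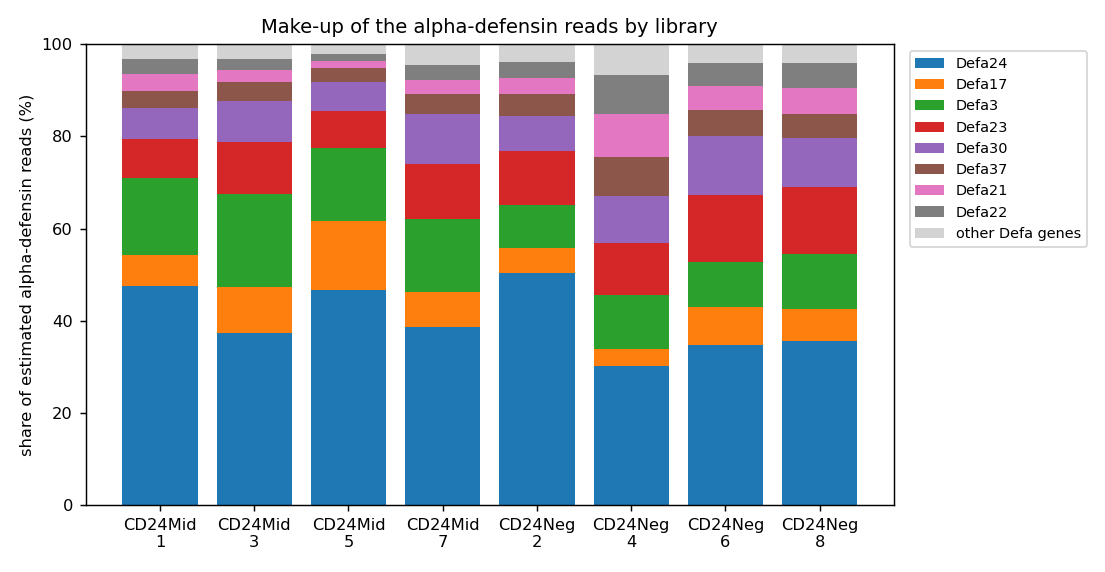
Share of estimated alpha-defensin reads (y axis, percent) held by each Defa gene in the 4 CD24Mid and 4 CD24Neg libraries; grey is the sum of the Defa genes not named. Defa24 is the largest segment in all 8 libraries (30.1% to 50.4%), and Defa21 and Defa22 are largest in CD24Neg replicate 4 (9.35% and 8.51%).

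Regulators and receptors known from Paneth cells were set beside their products. Of 23 such genes, 21 were tested, and 11 were higher in CD24Mid and 4 in CD24Neg (median log2 fold change 0.46), beside 35.5% and 34.3% of all tested genes. On unscaled totals the counts were 19 and 1, beside 69.8% and 12.9% of all tested genes. Led by size, these were the Wnt ligand Wnt3 (3.24 ± 0.918 against 0.218 ± 0.163 CPM), Sox9, a transcription factor required for Paneth cells and also active in crypt progenitors (65.6 ± 10.5 against 7.70 ± 2.52 CPM), Ephb3, a receptor that holds Paneth cells at the crypt base (29.0 ± 3.27 against 3.49 ± 1.42 CPM), and the potassium channel gene Kcnn4 (117 ± 13.8 against 14.5 ± 6.07 CPM). By edgeR the highest adjusted p of the 4 was 2.04e-05, for Wnt3. The 4 genes called higher in CD24Neg included Xbp1 (146 ± 17.6 CPM in CD24Mid against 213 ± 29.1 CPM in CD24Neg). They also included Atg5 (31.0 ± 0.555 against 39.3 ± 3.88 CPM). Both were named after their values were seen (edgeR adjusted p = 0.0030 and 0.0097). Wnt3 had 43, 90, 89 and 74 reads in the CD24Mid libraries and 1, 2, 1 and 4 in the CD24Neg libraries, which leaves its CD24Neg level poorly measured. The secretory fate factors Atoh1, Gfi1 and Spdef, named after their values were seen, were not called (edgeR adjusted p = 0.94, 0.74 and 0.42). All 10 crypt stem cell genes were higher in CD24Mid and all 12 enterocyte genes in CD24Neg, so regulator RNA of Paneth cells and of crypt progenitors cannot be told apart here.

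Of 15 matched further genes linked to Paneth cells, not all of them for secreted products, 11 were tested. Of these, 3 were higher in each fraction (median log2 fold change -0.15, beside 35.5% and 34.3% of all genes). On unscaled totals the counts were 6 in CD24Mid and 3 in CD24Neg (beside 69.8% and 12.9%). Ttr (transthyretin) was 6.83-fold higher in CD24Mid, and the peptide hormone gene Guca2b, which villus enterocytes also make, 46.1-fold, the lipase cofactor Clps 5.78-fold and Nupr1 3.64-fold higher in CD24Neg (by edgeR, adjusted p = 0.00010, 1.41e-07, 0.00080 and 0.00054). Among 27 matched paralogs of the granule genes, 12 were tested, of which CD24Mid was higher for 6 and CD24Neg for 4. With unscaled totals these were 8 and 0, beside the same shares of all genes in each case. Mmp14, a membrane-bound relative of Mmp7, was 3.29-fold higher in CD24Mid, with 33.7 ± 1.80 and 10.3 ± 3.15 CPM (adjusted p = 1.07e-05 by edgeR), and Mmp15 stood at 33.1 ± 2.66 and 49.4 ± 18.2 CPM, higher in CD24Neg (edgeR adjusted p = 0.028). Mmp3, Mmp8 and Mmp10 had no read in any library.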

How the data were processed

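RNA was sequenced from 4 CD24Mid and 4 CD24Neg libraries of sorted cells (TruSeq RNA kit, per the labels' protocols). Reads were aligned with Bowtie 0.12.8 to NCBIM37, per the submitters' processing notes; the table layout is that of MMSEQ, per the file headers. An annotation release and a strand setting were not given in the sources used here. The deposited values were whole-number counts of fragments unique to 1 gene, and an expression estimate with shared reads, read here as a natural log of FPKM, a scale the authors' headers do not state. Estimated reads are its exponential times effective length and mapped fragments; for genes with at least 100 reads their median ratio to unique counts was 1.003 to 1.004 over the libraries.

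The main test was the quasi-likelihood F test of edgeR 4.0.16 (R 4.3.3; robust, TMM factors, filterByExpr, no covariate), with p-values adjusted by Benjamini-Hochberg over all 12840 tested genes at a threshold of 0.05, after a check on simulated counts. The standard error is the size of the log2 fold change divided by the root of F. Alternatives used DESeq2 1.42.0, limma 3.58.1, other scalings, no filter, estimated counts, and each library left out. Exact tests and intervals came from SciPy 1.17.1; the intervals cover counting error only. Between libraries of 1 group the chi-square of their counts was 11.6 per degree of freedom or more, so none was counted as a repeat.

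The members and lists were chosen with earlier results of these data known. Beside the members, the rule named up to 4 called genes of each list with the largest change and a mean log2 CPM of 1 or more, paralogs with at least 10 reads in a library, and the 5 genes closest to Lyz1; only those that bear on a result are printed. Symbols came from GENCODE M21 and promoters from RefSeq on GRCm38.p6, a later build than that of the files, so no coordinate was joined to them. Of 37620 gene IDs, 87.4% had a symbol.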

Additional observations from a re-analysis of the deposited data

Results flagged for a closer look

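In 20 groups of 4 libraries (10 genes in each fraction), 3 had a library far from the rest. There the gap to the nearest library took more than 0.829 of the whole range. About 1 in 20 would pass this limit if values were independent and normally distributed. These genes varied together (r = 0.96 for Lyz1 and Itln1), so the 3 are not separate. The rate over all tested genes was not computed. Lyz1 reached 74.6 CPM in CD24Mid replicate 3, against 35.8 CPM in the next library, and 116 CPM in CD24Neg replicate 4, against 31.7 CPM in the next. Itln1 reached 46.5 CPM in CD24Mid replicate 3, against 26.2 CPM in the next. In CD24Neg, replicate 4 was highest for Itln1 too (49.2 CPM, next 27.6). The cause was not tested.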

How the results depend on the processing

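The Mmp7 call and its direction held in all 16 alternatives. On unscaled totals 3 granule genes were called higher in CD24Mid and 0 in CD24Neg (8959 and 1659 of all genes), with the log2 fold change of Lyz1 turning to 0.66 and that of Defa24 to 0.51. With limma on the deposited estimates, which are scaled by the mapped total alone, these were 2 and 0 (8672 and 1633 of all genes), 0.88 and 0.52. With no filter on low counts 0 were called in CD24Neg. Leaving out 1 library each left 1 to 1 granule genes called in CD24Mid and 0 to 3 in CD24Neg, and moved log2 fold changes from -0.33 to 1.204 for Ang4, -0.15 to 0.70 for Defa17, -0.85 to 0.024 for Defa24, -0.21 to 0.53 for Itln1 and -0.68 to 0.63 for Lyz1. Without CD24Mid replicate 3 and CD24Neg replicate 4 together, Lyz1 turned to 0.23. The groups share no replicate number in the labels, so no pairing given by the labels could be fitted. A replicate block of consecutive numbers, added after the data were seen, called 1 and 3 granule genes, adding Mptx2 (log2 fold change -1.42, adjusted p = 0.014, in a range of 0.014 to 0.83). Consecutive libraries deviated together over all genes (r of 0.36 to 0.43 in 4 such pairs, -0.36 to 0.078 in the other 12), a hint from the data and not the design. Mptx2 was not tested on estimated counts or without both high libraries. Pla2g2a had too few reads to be tested, and the cause of the shifts was not tested.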
